A study of Mus musculus with 4 samples.

Results

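The Serpin superfamily was examined in the epididymal white adipose tissue of mice, the visceral fat that lies along the epididymis in males. Its members were taken by name, as every protein-coding gene of the deposited table whose symbol is Serpin followed by a clade letter (a to i) and a digit, which gave 61 of 39179 genes. Polyadenylated RNA was sequenced in 2 libraries of wild-type mice (WT, Nck2+/+) and 2 of Nck2 mutant mice (KO, Nck2-/-), all on a mixed genetic background. The sources used here do not give the kind of Nck2 allele or the age and number of the animals. The labels name no animal for any library, and the p-values therefore reflect only the spread among these 4 libraries, which may be technical.

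Serpins are proteins of 1 shared fold, most of which act as suicide inhibitors of proteases. The protease cuts an exposed loop of the serpin, stays covalently bound to it and is lost together with it. Some members have given up inhibition: Serpinh1 is a chaperone of collagen, and Serpinf1 (pigment epithelium-derived factor) is a secreted factor that also binds the triglyceride lipase encoded by Pnpla2. Clade A holds most secreted serpins of plasma, which mice have multiplied in a gene cluster, and clade B holds the serpins that stay within cells. In fat, the family is known for the secreted members Serpinf1 and Serpina12 (vaspin).

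The libraries held 31831904 to 37980391 reads assigned to genes. Nck2 itself had 1279 and 1667 normalized counts in WT, against 1076 and 947 in KO, and its log2 fold change of -0.53 (SE 0.16) missed the threshold (adjusted p = 0.0509, limma). Adipocyte markers were abundant in all libraries, with 15 genes summing to 814446 and 541268 normalized counts in WT and 1954139 and 2246511 in KO. The WT libraries also held RNA of the male reproductive tract. There 20 markers of epididymis and male tract summed to 1146292 and 1408964 in WT and to 474 and 344 in KO, where 8 of them were at 0. Most of the WT sums came from Akr1b7 (695535 and 1015199) and Crisp1 (343811 and 334537). Other markers differed widely between WT replicates 1 and 2: Svs2 had 12085 and 63.3 and Svs4 11735 and 6.5, while Gpx5 had 12.2 and 206.5. Smooth muscle markers summed to 445286 and 584613 in WT and 26110 and 31206 in KO. The KO replicates differed in mesothelial markers, which summed to 27207 and 5452 there and to 14848 and 22572 in WT. In bulk RNA, fewer cells of a type and less RNA per cell cannot be told apart.

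The sequences below are the stretches before the transcription start of 4 clade A genes from the same cluster, shown because the first 3 rose and the last fell in KO. They are the 250 bases before the RefSeq start (GRCm38.p6), 5′ to 3′ on the gene's strand, and capitals mark the letters GTTAAT, the half-site of the liver-enriched factor HNF1.
Serpina1b (chr12:103738190-103738439, minus strand): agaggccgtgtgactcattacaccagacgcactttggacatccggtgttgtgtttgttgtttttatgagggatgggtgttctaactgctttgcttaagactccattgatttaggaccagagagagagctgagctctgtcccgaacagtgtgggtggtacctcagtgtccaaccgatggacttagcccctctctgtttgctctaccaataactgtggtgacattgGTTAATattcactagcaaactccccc
Serpina1d (chr12:103773634-103773883, minus strand): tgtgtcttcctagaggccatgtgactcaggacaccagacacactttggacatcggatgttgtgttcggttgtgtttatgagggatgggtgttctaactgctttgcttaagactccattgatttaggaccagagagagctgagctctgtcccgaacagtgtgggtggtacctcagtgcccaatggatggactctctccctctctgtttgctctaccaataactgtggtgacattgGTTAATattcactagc
Serpina1e (chr12:103956898-103957147, minus strand): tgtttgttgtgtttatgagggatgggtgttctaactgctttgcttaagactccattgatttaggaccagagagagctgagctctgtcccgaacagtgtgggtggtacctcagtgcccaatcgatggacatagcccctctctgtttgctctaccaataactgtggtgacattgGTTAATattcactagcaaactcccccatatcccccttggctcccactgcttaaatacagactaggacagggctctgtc
Serpina1f (chr12:103695530-103695779, minus strand): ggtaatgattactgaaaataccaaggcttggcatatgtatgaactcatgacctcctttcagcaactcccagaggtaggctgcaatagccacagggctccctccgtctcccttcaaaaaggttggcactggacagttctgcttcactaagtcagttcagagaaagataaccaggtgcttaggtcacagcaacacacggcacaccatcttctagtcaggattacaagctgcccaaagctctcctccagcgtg
GTTAAT occurred in the promoters of all 5 genes Serpina1a to Serpina1e, between 16 and 78 bases before the annotated start, and not in that of Serpina1f. It occurred on either strand in 7.1% of 32851 RefSeq promoters of 300 bases (250 before to 50 after the start). The longest run identical in the 5 promoters was 59 bases and was in no other promoter of the table: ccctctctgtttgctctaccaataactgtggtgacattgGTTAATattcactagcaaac. The longest piece of this run found in the Serpina1f promoter was 7 bases. Promoter identity was 85.2% to 91.4% among Serpina1a, Serpina1b, Serpina1c and Serpina1d, 63.3% to 69.3% between these and Serpina1e, whose annotated start lies further downstream of the shared run, and 43.9% to 48.3% with Serpina1f. Searched in the same way, the full HNF1 palindrome was in none of these 6 promoters and in 0.00913% of all, and the TATA box letters TATAAA were in none of the 6 and in 13.6% of all. The androgen receptor half-site letters AGAACA were in all 5 promoters from Serpina1a to Serpina1e, not in that of Serpina1f, and in 19.0% of all promoters. They were also in promoters of Serpina3b, Serpina3i and Serpinb12, which fell, and of Serpina3n, which rose. Those of Serpinb5, which fell, and of Serpinf1 and Serpinh1, which rose, lacked them. These are matches of letters and say nothing of binding.

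Of the 61 members, 17 were at 0 in all libraries, 18 had reads but a mean normalized count under 10, and 26 were tested. In KO, 11 of the 26 were higher and 5 were lower at an adjusted p under 0.05, and 10 did not pass (limma on log2(normalized count + 1), Benjamini-Hochberg over 16710 genes). These shares, 42.3% and 19.2%, stand beside 22.4% higher and 24.4% lower among all genes tested. Both KO libraries lay above both WT libraries for 14 members and below them for 6, where 38.9% and 40.6% of all tested genes did so. The median log2 fold change (KO minus WT) of the tested members was 0.67, against -0.01 over all genes. The number of calls depended on the WT libraries: without WT replicate 2, 0 members passed as higher and 3 as lower (10 and 5 at an unadjusted p under 0.05, limma), and without WT replicate 1, 6 and 3 passed, while all 16 called members kept their direction. The adjusted p of the 11 rises without WT replicate 2 ran from 0.0527 (Serpinb6a) to 0.167 (Serping1). In that fit log2 fold changes went from 4.90 to 4.32 for Serpina1b, from 0.77 to 0.74 for Serpinb6a, 0.86 to 0.83 for Serpinh1, 1.05 to 1.08 for Serpinf1 and 1.71 to 1.31 for Serpina3n, with 1 WT library left to set the level. The falls of Serpinb12 and Serpina3i missed the threshold without either WT library, as did the rises of Serpinf1, Serping1, Serpina3g, Serpinb9 and Serpina1d. Serping1 was also lost without KO replicate 1 (adjusted p = 0.129), Serpina3n without KO replicate 2 (0.0563), and Serpina3g (0.0607 and 0.0567) and Serpina3i (0.127 and 0.0825) without either KO library. In the fits without a WT library the genes called higher also dropped from 3735 to 524 and 1205.

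**Figure D1:**
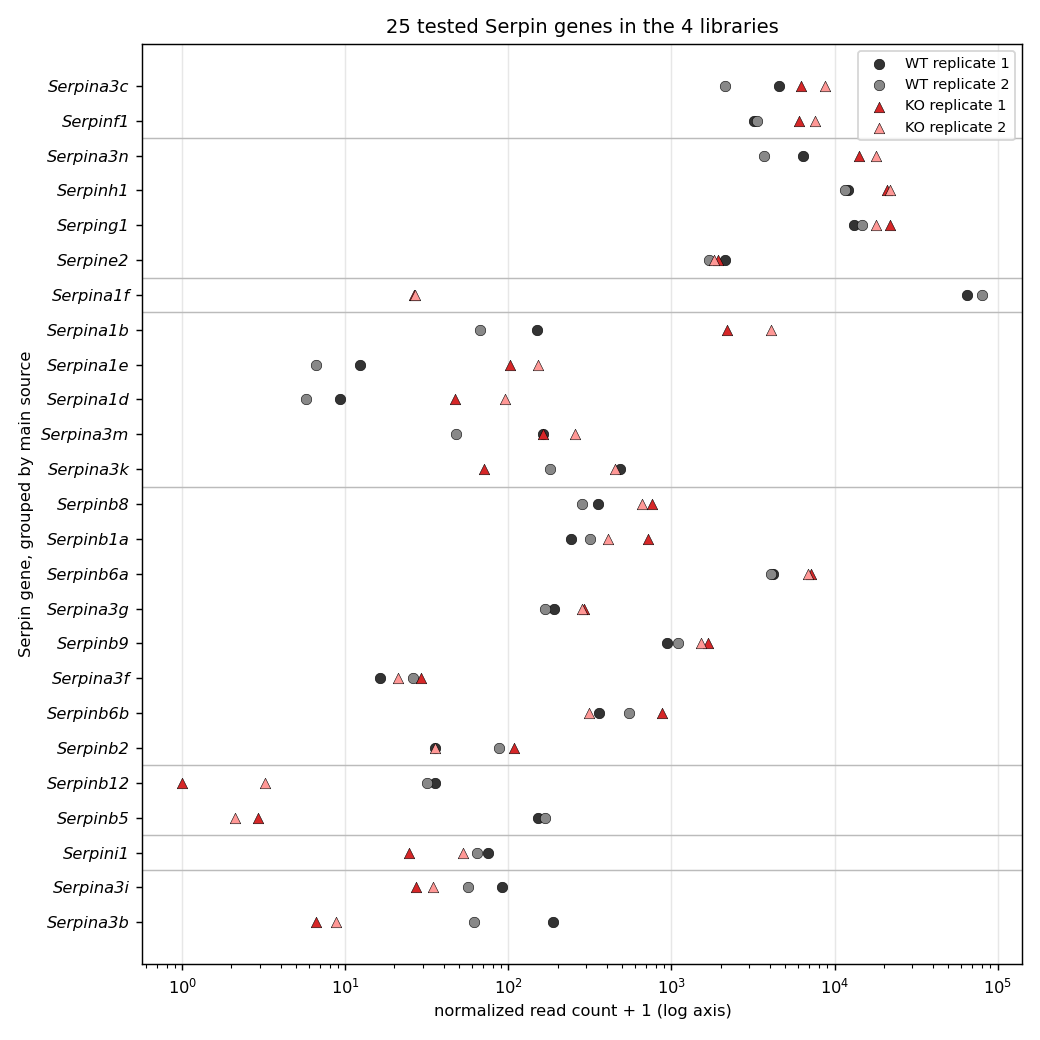
Normalized read count + 1 (log axis) of 25 tested members in each library, grouped by the main source of each serpin (top to bottom: adipose, stromal, epididymal, plasma serpins of the liver, leukocyte, squamous epithelial, nervous system, other). Grey circles are WT and red triangles KO libraries; the Serpina1f points lie at 65188 and 80786 for WT and at 25.3 and 25.7 for KO.

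The composition of the family differed between the genotypes. Serpin reads made up 0.36% (95% exact binomial interval 0.358 to 0.362) and 0.396% (0.394 to 0.398) of all reads in the WT libraries, and 0.244% (0.242 to 0.245) and 0.259% (0.257 to 0.26) in KO. A single gene, Serpina1f, gave 55.8% and 64.3% of the serpin reads in WT and 0.0292% and 0.0262% in KO. Without it, serpin reads were 0.159% and 0.141% of all reads in WT and 0.244% and 0.259% in KO. In KO the family was led by Serping1 (25.3% and 18.2% of serpin reads), Serpinh1 (24.1% and 22.5%) and Serpina3n (16.4% and 18.5%). Intervals cover counting error only.

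**Figure D2:**
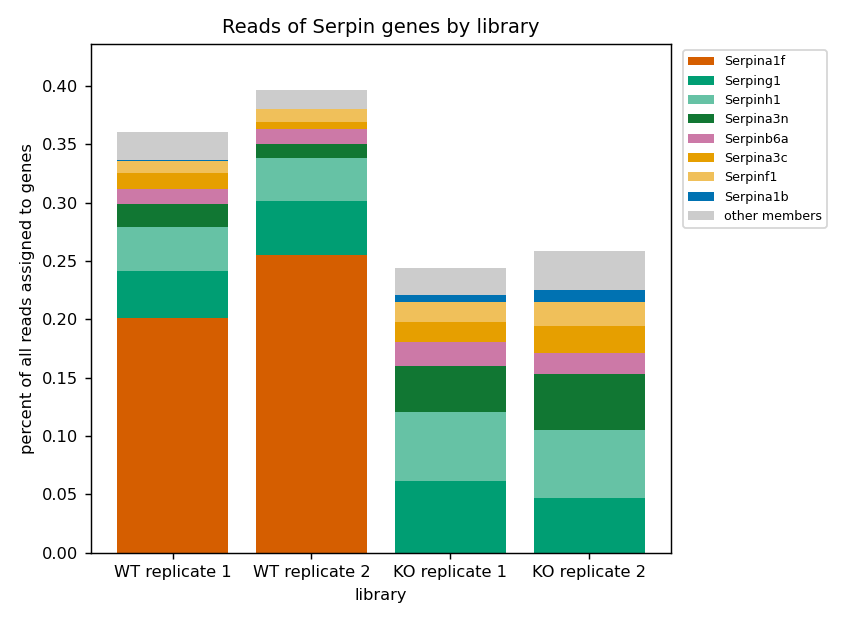
Serpin reads as a percent of all reads assigned to genes, 1 bar per library, with the 8 leading members stacked and the rest in grey. The Serpina1f segment fills at least 55.8% of each WT bar and is not visible in KO, where the bars total 0.244% and 0.259%.

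Per kilobase of exon, the order of members changed in the same way. Serpina1f ranked 1st of 26 in WT, at 22900 normalized counts per kb, and 22nd in KO, at 8.0. Serping1 (6010 per kb), Serpinh1 (4830) and Serpina3n (2460) followed it in WT. In KO the leading levels were 8780 per kb for Serpinh1, 8550 for Serping1 and 7820 for Serpina3n, and those 3 did not separate, since their KO libraries overlapped (7672 to 9426 per kb for Serping1, 6882 to 8751 for Serpina3n and 8558 to 9010 for Serpinh1). Serpina1b moved from rank 19 (44.3 per kb) to rank 7 (1290 per kb).

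Of the 4 adipose serpins, 1 rose in KO, 2 tested members did not pass and Serpina12 was too low to test (median log2 fold change 1.24). The rise was 33.3% of those tested, beside 22.4% of all tested genes. Serpinf1 (ENSMUSG00000000753, GRCm38 chromosome 11, 75409769 to 75422701) had 3227 and 3366 normalized counts in WT, against 6077 and 7621 in KO. The groups did not overlap, and the rise was 2.06-fold (log2 1.05, SE 0.13, adjusted p = 0.00498). Serpina3c, a clade A member, had 4582 and 2140 in WT, against 6205 and 8795 in KO. Both KO libraries lay above WT (log2 1.24, SE 0.41, adjusted p = 0.07, limma). DESeq2 on the recovered reads called it (adjusted p = 0.00558), while limma and edgeR did not, and the authors' deposited table gives it a log2 fold change of 1.11 with an adjusted p of 0.0997.

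Serpina12 had 1 read in WT and 8 in KO in total, a ratio of 8.38 (95% counting interval 1.12 to 372). The mature adipocyte markers had a median log2 fold change of 1.68, with 12 of 15 higher in KO, and what they contribute to the values of this list was not tested.

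The 4 stromal serpins were all tested, and 3 rose (75.0%, beside 22.4% of all tested genes). Their median log2 fold change was 0.68. Serpinh1, the collagen chaperone (chromosome 7, 99345376 to 99353239), had 12053 and 11554 normalized counts in WT, against 20907 and 22012 in KO. The libraries of each genotype lay close together and apart from the other, and the rise was 1.82-fold (log2 0.86, SE 0.085, adjusted p = 0.00306). Serping1, the C1 inhibitor of complement and of the contact system (chromosome 2, 84765387 to 84775444), had 13155 and 14806 in WT, against 21916 and 17838 in KO. Its rise was the smallest of the called ones, 1.42-fold (log2 0.50, SE 0.14, adjusted p = 0.0448), and it missed the threshold with edgeR (adjusted p = 0.057) and with TMM scaling (0.0519).

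Serpina3n, a secreted acute-phase inhibitor known to block granzyme B (chromosome 12, 104406729 to 104414329), had the largest change of the stromal list. It had 6439 and 3710 normalized counts in WT, against 14204 and 18062 in KO, 3.28-fold higher (log2 1.71, SE 0.30, adjusted p = 0.0131), with no overlap. Serpine2 (protease nexin-1, an inhibitor of thrombin and plasminogen activators) had 2114 and 1693 in WT, against 1920 and 1830 in KO, where the KO values lay between the WT values (log2 -0.01, SE 0.13, adjusted p = 0.936). Markers of fibroblasts and progenitors had a median log2 fold change of 0.06 and 2 of 10 rose, among them Fn1 (1.07), while Col1a1 was at -0.09 (adjusted p = 0.42). Endothelial markers had a median of 0.96 (6 of 9 higher). The part of either cell type in these values was not tested.

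The epididymal serpins gave the greatest fall in the family. Serpina1f (ENSMUSG00000021081, chromosome 12, 103688044 to 103695529, minus strand), a serpin of the epididymis in mice, was at 65188 and 80786 normalized counts in WT (mean 72987 ± 11029, SD, n = 2) and at 25.3 and 25.7 in KO (25.5 ± 0.259). The fall was 2740-fold (log2 -11.42, SE 0.12, adjusted p = 0.000139), and it passed under all 13 alternatives (log2 -11.57 to -11.22). All 50-base windows of its exons were unique among annotated genes, so no exact match of the read length, 50 bases, could come from another annotated gene. The male tract markers of smallest p, Crisp1 (log2 fold change -11.71), Spink8 (-11.62) and Akr1b7 (-11.58), fell by like amounts. Of 16 tested male tract markers 11 were lower, and log2 fold changes ran from -11.71 to -2.41. Lcn8 (1.0 and 23.3 normalized counts) and Lcn9 (0 and 22.3) were already low in WT and were not tested. Serpina5 (protein C inhibitor, also made in the male tract) had 16 reads in WT and 1 in KO, a ratio of 15.3 (2.37 to 641). How much male tract tissue each sample held was not tested apart from these markers.

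**Figure D3:**
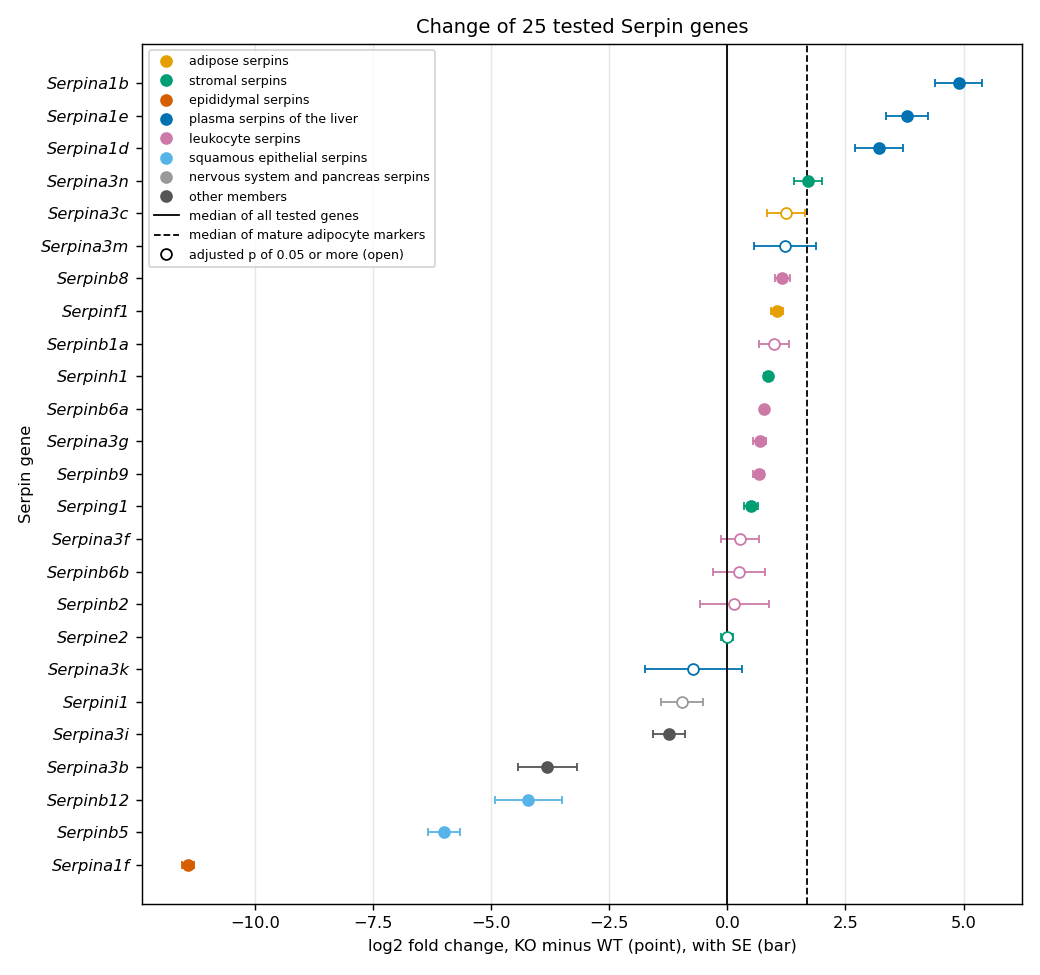
Log2 fold change, KO minus WT, of 25 tested members with its SE. Colours give the list, open points did not pass, the solid line is the median of all tested genes (-0.01) and the dashed line that of the mature adipocyte markers (1.68); Serpina1b lies farthest right (4.90) and Serpina1f farthest left (-11.42).

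The tested genes nearest to Serpina1f, all on 1 side of it, went the other way. On its other side Serpina6, 30832 bases away, had 3 reads in WT and 0 in KO and was too low to test. Serpina1a to Serpina1e encode mouse forms of alpha-1 antitrypsin, the plasma inhibitor of neutrophil elastase that is made mainly in the liver, and the 3 of them that were tested all rose. Serpina1b (ENSMUSG00000071178, chromosome 12, 103728156 to 103830373) had 148 and 66.1 normalized counts in WT, against 2191 and 4049 in KO, 29.8-fold higher (log2 4.90, SE 0.50, adjusted p = 0.00334). Serpina1e had 11.2 and 5.6 in WT, against 101 and 152 in KO (log2 3.80, SE 0.44, adjusted p = 0.00444). Serpina1d had 8.2 and 4.7 in WT, against 45.9 and 93.7 in KO (log2 3.21, SE 0.51, adjusted p = 0.00993). In each case the lower KO library was several times the higher WT library. Without WT replicate 2 these calls were lost (Serpina1b log2 4.32, adjusted p = 0.0613).

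The copies Serpina1a to Serpina1e share long exact stretches, so their counts are uncertain one by one. Of the 50-base windows in their exons, 70.5% were unique in Serpina1b, 65.4% in Serpina1e and 49.1% in Serpina1d, which shared 37.7% with Serpina1b. Serpina1a had 2 reads in WT and 9 in KO, and Serpina1c 0 and 5. The annotated span of Serpina1b also encloses Serpina1d. The 2 annotations differ on where Serpina1b and Serpina1e start. On the minus strand their GENCODE spans begin at 103830373 and 103958975. Both lie upstream of the RefSeq stretches shown above, which reach 103738439 and 103957147. The sources used here do not give how reads that fit several genes were counted.

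The other plasma serpins did not pass the test or were too low for it. Of 14 plasma serpins on the list, 5 were tested and 3 were higher (60.0%, beside 22.4% of all tested genes). The 3 are the Serpina1 genes above, of which Serpina1d and Serpina1e passed the filter only through KO. Serpina3m had 161 and 46.5 normalized counts in WT, against 162 and 254 in KO (log2 1.22, SE 0.66, adjusted p = 0.194), and Serpina3k had 480 and 178 in WT and a wide spread of 69.3 and 449 in KO (log2 -0.72, SE 1.03, adjusted p = 0.597). The exons of these 2 genes overlap by 60 bases. Serpina7 (thyroxine-binding globulin) had 26 reads in WT and 0 in KO, where the 95% counting interval of the ratio starts at 6.26, and Serpinf2 (the plasmin inhibitor alpha-2 antiplasmin) had 19 and 5, a ratio of 3.63 (1.31 to 12.4). Antithrombin, Serpinc1, had 5 reads in each genotype, and Serpina10 was at 0. Of the 12 hepatocyte markers, Alb was higher in KO (log2 2.34, adjusted p = 0.0135), Fga (-7.64) and Apoa1 (-3.29) were lower, and Apob was at 0 in all libraries. The 2 tested markers that did not pass, Ahsg (-0.47) and Hpx (-0.37), had negative log2 fold changes. The 12 markers summed to 457 and 350 in WT and 608 and 571 in KO. Alb alone held 161 and 70.7 of these in WT and 555 and 532 in KO, so the rise of the sum lay in Alb.

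The 22 members of the clade A cluster lie between 103614786 and 104414329 on chromosome 12, a span of 800 kb, and 12 were tested: 5 rose, 3 fell and 4 did not pass (41.7% and 25%, beside 22.4% and 24.4% of all genes). Serpina1f and Serpina1b are 32627 bases apart at their nearest annotated ends. Among the Serpina3 paralogs, 10 genes multiplied in mice from an ancestor of alpha-1 antichymotrypsin, 8 were tested, with 2 higher, 2 lower and a median log2 fold change of 0.47. These shares, 25% each way, are close to those of all genes. Serpina3b had 187 and 60.5 normalized counts in WT, against 5.6 and 7.8 in KO, 14.1-fold lower (log2 -3.81, SE 0.62, adjusted p = 0.0107). Its log2 fold change moved to -3.01 without WT replicate 1 and to -4.62 when WT replicate 2 was left out. Serpina3i had 89.7 and 55.8 in WT, against 26.2 and 33.5 in KO (log2 -1.23, SE 0.34, adjusted p = 0.0431), and missed the threshold with no filter on low values (0.0542). Serpina3j had 19 reads in WT and 1 in KO, a ratio of 18.1 (2.88 to 754). Of the WT reads, 17 came from WT replicate 1 and 2 from WT replicate 2, so the ratio rests mostly on 1 library. The share of 50-base windows unique to 1 gene was 97.1% for Serpina3b, 93.1% for Serpina3n and 84.1% for Serpina3i.

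**Figure D4:**
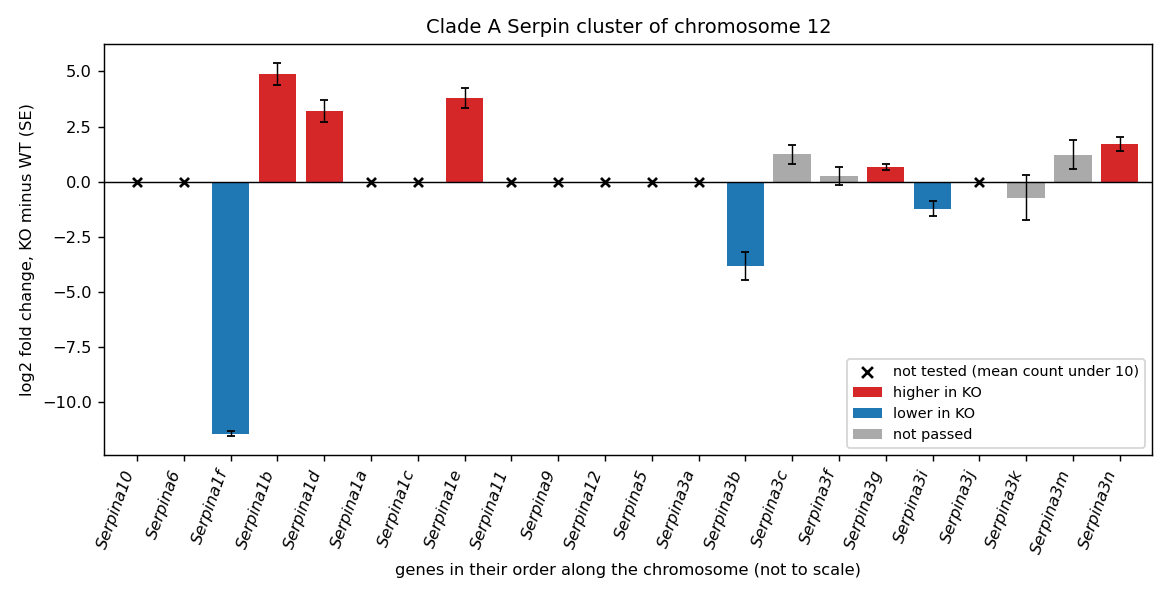
Log2 fold change, KO minus WT, with SE, of the 22 clade A members in their order along chromosome 12 (not to scale). Red bars are higher, blue bars lower and grey bars not passed, and crosses mark 10 members that were too low to test; the tall blue bar of Serpina1f (-11.42) stands directly beside the red bars of Serpina1b (4.90) and Serpina1d (3.21).

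Of the 11 leukocyte serpins, 8 were tested, 4 rose and 4 did not pass (median log2 fold change 0.67). The rises were 50.0% of those tested, beside 22.4% of all tested genes. Serpinb6a, an intracellular inhibitor of cathepsin G, had 4199 and 4051 normalized counts in WT, against 7209 and 6840 in KO, 1.70-fold higher with narrow groups (log2 0.77, SE 0.067, adjusted p = 0.00239). Its exons overlap genes on the opposite strand by 1587 bases, and without known strand those reads cannot be told apart. Serpinb8, an inhibitor of furin, had 355 and 280 in WT, against 753 and 659 in KO (log2 1.16, SE 0.16, adjusted p = 0.00665). Serpinb9, the inhibitor that protects cells from granzyme B, had 936 and 1089 in WT, against 1668 and 1516 in KO (log2 0.66, SE 0.11, adjusted p = 0.0107). Serpina3g, an inhibitor of lysosomal cathepsins, had 188 and 167 in WT, against 291 and 281 in KO (log2 0.68, SE 0.13, adjusted p = 0.0168). For each of these 4 genes both KO libraries lay above both WT libraries, as they did for 38.9% of all tested genes.

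The other leukocyte members were less clear. Serpinb1a, an inhibitor of neutrophil elastase, had 239 and 315 normalized counts in WT, against 720 and 407 in KO (log2 0.98, SE 0.32, adjusted p = 0.068; DESeq2 0.0146). Serpinb6b, Serpinb2 and Serpina3f overlapped between the genotypes, with log2 fold changes of 0.24, 0.15 and 0.26 (SE 0.55, 0.73 and 0.40). Serpina9 had 25 reads in WT and 0 in KO, where the 95% counting interval of the ratio starts at 6.0. Macrophage markers summed to 23173 and 22142 in WT and to 49865 and 46882 in KO, with 9 of 10 higher and a median of 1.15. T and NK cell markers summed to 487 and 568 in WT and 600 and 590 in KO. The part of these cells in the values above was not tested.

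Both tested members of the squamous epithelial list fell, where 24.4% of all tested genes were lower. Serpinb5 (mean 158 in WT, 1.49 in KO) and Serpinb12 (32.7 and 1.12) reached the mean of 10 only through WT. A member of this list near 0 in KO could be tested only if it was high in WT, so this share says little about the list. Of its 9 members, 6 were at 0, and Serpinb7 had 1 read in WT and 5 in KO. Serpinb5 (maspin, an epithelial serpin that is not a protease inhibitor; chromosome 1, 106861173 to 106883348) had 150 and 167 normalized counts in WT, against 1.9 and 1.1 in KO (log2 -6.01, SE 0.34, adjusted p = 0.00103). In reads this was 326 against 3, a ratio of 104 (35.2 to 506). Serpinb12 had 34.6 and 30.7 in WT, against 0 and 2.2 in KO (log2 -4.22, SE 0.71, adjusted p = 0.0115), 67 reads against 2 (ratio 32.0, 8.51 to 269). The basal epithelial keratin Krt5 was at 666 and 746 in WT and at 0 in both KO libraries, and Trp63 fell with a log2 fold change of -3.78. The other 2 tested squamous markers did not pass: Krt14 had 292 and 372 in WT and 457 and 63.6 in KO (log2 -0.94, adjusted p = 0.465), and Krt10 had a log2 fold change of -0.34 (adjusted p = 0.256). Dsg3, Flg and Krt6a were at 0 in all libraries. The 10 squamous markers summed to 2011 and 2186 in WT and 589 and 254 in KO, and their part in the fall was not tested.

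Serpini1 (neuroserpin, an inhibitor of tissue-type plasminogen activator) had 74.4 and 63.3 normalized counts in WT, against 23.4 and 51.3 in KO, with both KO libraries lower (log2 -0.96, SE 0.44, adjusted p = 0.141). It passed without KO replicate 2 (log2 -1.51, adjusted p = 0.0372). Serpini2, of the pancreas, was at 0. The members with reads but under the filter ranged from 1 read in total (Serpine3) to 35 reads (Serpinb9b, 13 in WT and 22 in KO). Among them were Serpind1 (heparin cofactor II, 16 reads in WT and 12 in KO), Serpina6 (corticosteroid-binding globulin, 3 and 0), Serpina11 (0 and 3), Serpina3a (18 and 7), Serpinb6c (14 and 12) and Serpinb1b (4 and 2). The members at 0 in all libraries, beside Serpina10 and Serpini2, were all of clade B: Serpinb1c, Serpinb3a, Serpinb3b, Serpinb3c, Serpinb3d, Serpinb6d, Serpinb6e, Serpinb9c, Serpinb9d, Serpinb9e, Serpinb9f, Serpinb9g, Serpinb10, Serpinb11 and Serpinb13. A count of 0 allows up to 3 reads.

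Partners of the family were counted in the same fit. Of 20 tested proteases known to be inhibited by serpins, 3 were higher and 4 lower (median log2 fold change 0.02), shares of 15.0% and 20.0% that are below the 22.4% and 24.4% of all genes tested. The membrane-bound epithelial proteases fell: Tmprss2 had 924 and 1075 normalized counts in WT, against 4.7 and 2.2 in KO (log2 -7.86, adjusted p = 0.000719), Prss8 had a log2 fold change of -7.94 and St14 of -4.48. The cysteine protease cathepsin S, Ctss, rose (1.29, adjusted p = 0.000835), and urokinase, Plau, a plasminogen activator, fell (-0.88, adjusted p = 0.00523). Of 19 cofactors, receptors and clients, 12 rose and 3 fell (63.2% and 15.8%, median 0.73). The rises included Pnpla2, the lipase bound by Serpinf1 (log2 1.63), and Col5a1, a fibrillar collagen (1.32). They also included Agt, angiotensinogen (0.68), a serpin whose symbol lies outside the naming rule. The receptor Lrp8 fell (-2.25). Of 12 tested protease inhibitors from other families, 2 rose and 7 fell (16.7% and 58.3%). The smallest p were those of the Kunitz-type inhibitors Spint1 (-7.46) and Spint2 (-2.99). The male tract markers moved the same way as these epithelial genes (median log2 fold change -8.65), and their part in the values was not tested.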

How the data were processed

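Per the labels' protocols, RNA was extracted with Trizol and RNeasy columns, and single-read libraries of 50 cycles were made with a TruSeq kit. Per the submitters' processing notes, the tools included DESeq2 1.4.5, HTSeq 0.5.3, TopHat2 2.0.10 and CASAVA 1.8, with the build GRCm38. The signal the authors deposited per gene is a normalized count, the read count over a library size factor (0.8962 to 1.075 in these libraries), and a table of log2 fold changes with p-values and adjusted p-values. Dividing by the value of 1 read gave whole reads for 100% of values within a tolerance of 0.01.

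In R 4.3.3, limma 3.58.1 with an intensity trend was fitted to log2(normalized count + 1) with genotype as the only term, over the 16710 genes whose mean reached 10, with Benjamini-Hochberg adjustment and a threshold of 0.05. Adding the pseudocount understates changes of low genes. Alternatives were DESeq2 1.42.0 and edgeR 4.0.16 on whole reads, pseudocounts of 0.5 and 5, no filter or a mean of 50, upper-quartile and TMM scaling, a replicate block and each library left out. Positions, exon lengths and 50-base windows came from GENCODE M21 (GRCm38), which matched 60 of 61 members, and promoters from RefSeq (GRCm38.p6, 52 of 61). Ratios of reads used exact 95% intervals, and 0 reads was taken to allow as many as 3. Such limits reflect counting error alone, since reads carry no molecular identifiers and may be copies of 1 molecule. Members outside the adipose, stromal and epididymal lists were named in full where both KO libraries lay on 1 side of both WT libraries (up to 10 rises and 10 falls), and partners by smallest p (up to 4 per list); Plau, Fn1, Col1a1 and the markers named were added after their values were seen. Members and lists were chosen with earlier results of these data known. The values of 1 tested member are not reported here, though it is among the counts.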

Additional observations from a re-analysis of the deposited data

How the results depend on the processing

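Of the 16 called members, 14 (not Serpina3i and Serping1) stayed called in each of the 9 alternatives with 4 libraries that tested them; Serpina1d and Serpinb12 were not tested at a mean of 50 or more, 3 (Serpina1f, Serpina3b and Serpinb5) in all 13, and 0 changed direction. The 11 members higher in KO ranged from 0 to 10 with a library left out, and the 5 lower from 3 to 5; the 1 library then left in a group was assumed to vary like the other genotype, with fewer residual degrees of freedom. Without KO replicates 1 and 2, 13 of the 16 were kept in each fit, but 9 without WT replicate 1 and 3 when WT replicate 2 was dropped. With no filter, 44 members were tested, 12 higher and 7 lower. With DESeq2 13 were higher. In the authors' deposited table, 36 members had an adjusted p, and 12 were higher and 7 lower at 0.05. Members that did not pass changed sign: Serpine2 was 0.00 with upper-quartile scaling and, with a library left out, log2 fold changes spanned -0.17 to 0.15 for Serpine2, -0.50 to 0.99 for Serpinb6b, -2.06 to 0.62 for Serpina3k, -0.65 to 0.95 for Serpinb2 and -0.08 to 0.61 for Serpina3f. Low counts limit Serpinb12 (-2.65 with a pseudocount of 5, -5.07 without KO replicate 2) and Serpinb5 (-4.65 with a pseudocount of 5, -6.71 with DESeq2). With the replicate block, 10 members were higher and 4 lower, and Serping1 (adjusted p = 0.101, limma) and Serpina3i (0.0882) were lost. Same-numbered libraries did not deviate together over all genes (r = -0.00904 across 16710 genes, which are not independent). A link between them that touches only some genes could be missed by this correlation. The cause of these changes was not tested.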

Other observations

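The deposited table holds 8 further rows with Serpin symbols that are not protein-coding. Serpina3h, a pseudogene of the Serpina3 group, had 70.3 and 52.1 normalized counts in WT, against 81.5 and 80.3 in KO (log2 fold change 0.41, SE 0.24, adjusted p = 0.22, limma). Serpina3e-ps had 13.2 and 4.7 in WT, against 25.3 and 23.4 in KO (1.5, SE 0.56, adjusted p = 0.0917). Both KO libraries were above both WT libraries for these 2 rows. Serpina3e-ps shares 2.68% of the 50-base windows of Serpina3n, and Serpina3h shares 9.82% of those of Serpina3i and 8.89% of those of Serpina3g. Serpinb10 has 2 rows: the protein-coding one was at 0 in all libraries, and the one listed as a polymorphic pseudogene had 9 and 16 reads in WT, against 22 and 9 in KO. Its exons overlap those of Serpinb2 on the same strand by 291 bases.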
